A study of Mus musculus with 12 samples.

Results

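The collagen genes of cultured mouse cardiac fibroblasts were compared between untreated cells and cells whose PDGF receptors were stimulated or inhibited. A gene belonged to the family when the platform gave its probe set a single symbol made of Col, a number, the letter a and a number. This gave 46 probe sets for 44 genes, of 19938 genes measured. Only Col6a5 and Col6a6 had more than 1 probe set, and the brighter one was kept. By the structure of the protein, 11 genes encode fibrillar chains, 9 FACIT chains (collagens that sit on the surface of fibrils), 6 the type IV chains of basement membranes, 3 other network chains and 6 the type VI family of beaded filaments. The remaining classes were 4 transmembrane collagens, 2 multiplexins, 1 anchoring fibril chain (Col7a1) and 2 other collagens (Col26a1 and Col28a1).

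Collagens are secreted as helices of 3 chains, so the chains of a type must be made together. The chains are hydroxylated and folded into the helix, which is then trimmed and crosslinked before it bears load. Types I and III form the bulk of the fibrils of the heart, types V and XI set the width of fibrils from inside them, and FACIT chains such as types XII and XIV decorate their surface. Type IV builds the sheet under endothelium and around cardiomyocytes, and type VI links that sheet to the fibrils. Fibroblasts are the main source of fibrillar collagen in the heart.

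The cells were cardiac colony-forming-unit fibroblasts (cCFU-F), grown as P0 bulk cultures from hearts of C57BL/6 males aged 12 weeks, after a sort for cells with SCA1 and PDGFRα and without CD31. There were 4 groups of 3 arrays: untreated cells, cells given the receptor ligand PDGF-AB at 50 ng/ml, and cells given AG1296, which inhibits the tyrosine kinase of PDGF receptors and of some related receptors, at 1 uM or at 10 uM. All groups shared the sort, the strain, the sex and the age. How long the cells were treated, and in what vehicle, is not given in the sources used here, so an effect of a vehicle cannot be told apart from that of a treatment. The labels do not say whether the 3 arrays of a group came from separate cultures or animals, so a p-value reflects the spread among these arrays, which may be technical.

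Values are log2 expression per probe set. Array medians lay between 4.02 and 4.13, arrays of the same group correlated across genes at r from 0.992 to 0.996, and the array least like those of the other groups was PDGF-AB replicate 1 (mean r 0.990). Pecam1, which encodes the CD31 of the sort, was at 3.02 ± 0.16 (SD, n = 3) in untreated cells and below the array median on all 12 arrays. Pdgfra, the receptor of the sort, was at 9.42 ± 0.07 in untreated cells, above the median on all 12. Of the 10 fibroblast markers 8, Pdgfra among them, were above it on all 12. The fibroblast markers Lum and Dpt were above it on only 3 and 2 arrays, with untreated means of 2.49 and 3.23. On every array 5 of the 8 endothelial, 4 of the 8 cardiomyocyte and 4 of the 7 measured leukocyte markers lay below the array median. So did 8012 of all 19938 genes. The cardiomyocyte marker Tnnt2, the leukocyte marker Lyz2 and 5 of the 6 mesothelial markers lay above it on all 12. The same held for 2 of the 3 measured Schwann cell markers, 2 of the 8 pericyte and smooth muscle markers and 10086 of all genes. In these bulk cultures a smaller share of cells of a type and less RNA per cell cannot be told apart.

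Of the 44 collagens, 36 were above the array median on all 12 arrays and 4 (Col6a5, Col10a1, Col17a1 and Col28a1) were below it on all 12. Of all 19938 genes, 10086 were above it and 8012 below it on all 12. A level above the median does not by itself show that a gene was expressed. All 6 basement membrane genes and 10 of the 11 fibrillar genes were above the median throughout. Levels of different probe sets cannot be ranked, since they depend on the probes.

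In an F test over the 4 groups (limma, Benjamini-Hochberg adjustment over all genes, called at an adjusted p under 0.05), 11 of the 44 collagens were called, where 5.00% of all genes were. They were 5 fibrillar genes (Col1a1, Col3a1, Col5a1, Col5a2, Col11a1), 2 FACIT genes (Col12a1, Col14a1), 1 basement membrane gene (Col4a1), 1 other network gene (Col8a1) and 2 type VI genes (Col6a1, Col6a2). A further basement membrane gene, Col4a5, was called between AG1296 10 uM and PDGF-AB only. The share of all genes called depends on dim genes: without those below the median of all values, the F test called 1557 of 10296. The 6 comparisons between pairs of groups gave 32 collagen calls, and each was a higher level with AG1296 than in the other group, or at 10 uM than at 1 uM. The comparisons share arrays and are not independent of each other.

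**Figure D1:**
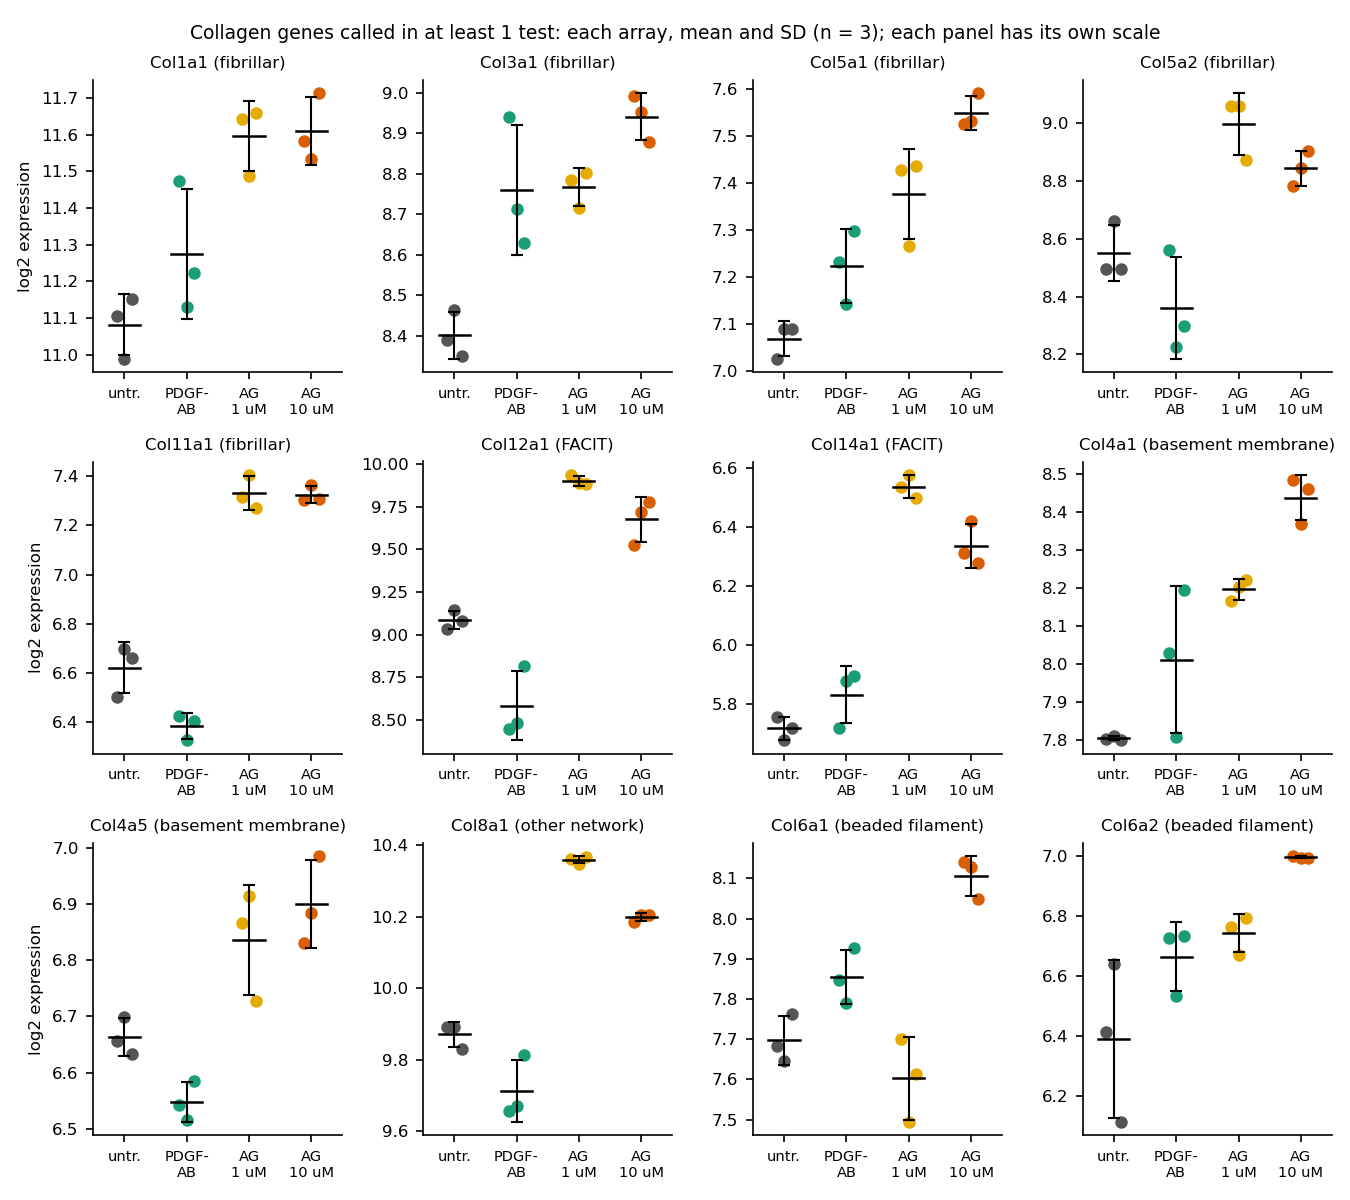
Log2 expression of the 12 collagen genes called in at least 1 test, with a panel per gene and the class of the chain in brackets. Points are arrays, horizontal bars the mean and error bars the SD of 3 arrays, and each panel has its own scale. In 11 panels both AG1296 groups have a higher mean than untreated; in the Col6a1 panel the 1 uM group does not.

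AG1296 at 10 uM raised 10 of the 44 collagens over untreated cells and lowered none, beside 1.88% of all genes called in either direction. The increases were 0.33 to 0.70 on the log2 scale, 1.26-fold for Col8a1 to 1.63-fold for Col11a1. With genes below the median of all values left out, 676 of 10296 genes were called, and none of these 10 collagen calls was lost. For 17 collagens all 3 arrays lay above the untreated ones (9.78% of all genes) and for 1, Col8a2, all 3 lay below (8.19%). The median difference was 0.098 over the 44 collagens and 0.0075 over all genes. By class, 4 of 11 fibrillar (median difference 0.25), 2 of 9 FACIT (0.092), 1 of 6 basement membrane (0.19), 1 of 3 other network (-0.051) and 2 of 6 type VI genes (0.17) rose, and none of the 9 other collagens was called. Without AG1296 10 uM replicate 1 the count fell to 6 (Col3a1, Col5a1, Col11a1, Col12a1, Col14a1, Col4a1). Differences between classes were not tested.

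AG1296 at 1 uM raised 8 of the 44 and lowered none, beside 3.20% of all genes called in either direction. These were Col1a1, Col3a1, Col5a2, Col11a1, Col12a1, Col14a1, Col4a1 and Col8a1, with increases of 0.37 to 0.82. Leaving out genes below the median of all values gave 1017 calls among 10296 genes, and none of these 8 collagen calls was lost. All 3 arrays lay above the untreated ones for 14 collagens (10.1% of all genes) and below them for 0 (10.2%). The median difference was 0.023 over the 44 collagens and -0.012 over all genes. Here 4 of 11 fibrillar, 2 of 9 FACIT, 1 of 6 basement membrane, 1 of 3 other network and 0 of 6 type VI genes rose; of the type VI genes 1 had an unadjusted p under 0.05 (limma), as did 13.1% of all genes. Leaving out AG1296 1 uM replicate 1 left 4 calls (Col11a1, Col12a1, Col14a1, Col8a1), and leaving out replicate 2 or 3 of that group, or untreated replicate 1 or 3, left 5 each.

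PDGF-AB gave no call among the 44 collagens against untreated cells (limma), beside 0.331% of all genes called, and 6 collagens had an unadjusted p under 0.05, as did 8.55% of all genes. Those 6 were Col12a1 and Col11a1, with lower means, and Col3a1, Col6a2, Col6a3 and Col15a1, with higher ones. The PDGF-AB arrays all lay above the untreated ones for 5 collagens (6.74% of all genes) and below them for 4 (6.61%). The largest difference was that of Col12a1, -0.50 ± 0.11 (SE; adjusted p = 0.0764). Without PDGF-AB replicate 3, Col12a1 passed the threshold, which was then the only call.

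**Figure D2:**
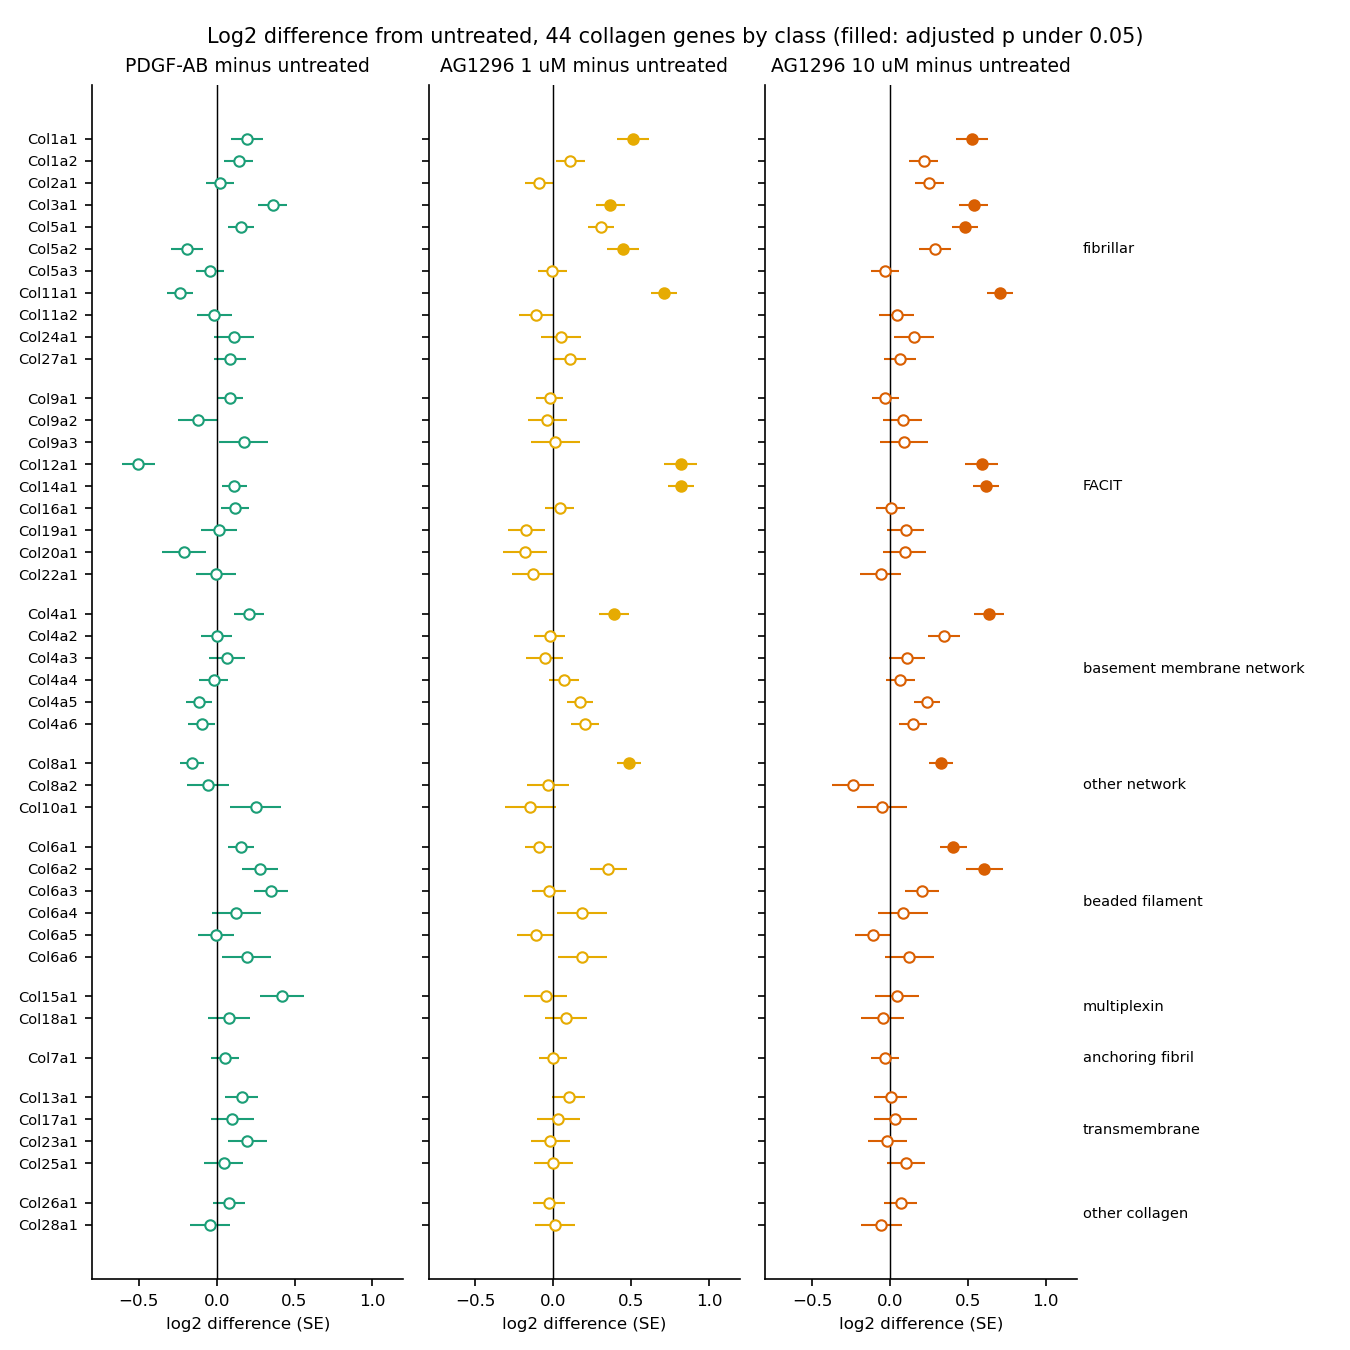
Log2 difference from untreated for all 44 collagen genes, grouped by class from top to bottom, with 1 panel for each treatment. Points are fitted differences with their SE, and filled points have an adjusted p under 0.05: 0 with PDGF-AB, 8 at 1 uM and 10 at 10 uM, all to the right of 0.

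Among the 12 called genes, the sign of the difference from untreated fell into 3 patterns, described here after the values were seen. For 5 genes (Col11a1, Col12a1, Col5a2, Col8a1, Col4a5) the mean was lower with PDGF-AB and higher at both AG1296 doses. For 6 genes (Col1a1, Col3a1, Col5a1, Col14a1, Col4a1, Col6a2) all 3 treated means were above untreated. Col6a1 was above untreated with PDGF-AB and at 10 uM and below it at 1 uM.

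Among the fibrillar genes, Col11a1 (probe set 10495449), which encodes the α1 chain of the minor fibril collagen XI known best from cartilage, had the smallest adjusted p in the F test (7.67e-06). It read 6.50, 6.70 and 6.66 in the 3 untreated arrays, 6.43, 6.33 and 6.40 with PDGF-AB, 7.32, 7.41 and 7.27 with AG1296 1 uM, and 7.31, 7.37 and 7.31 with 10 uM. All 6 AG1296 arrays lay above the other 6, and the PDGF-AB arrays lay below the untreated ones. Against untreated the difference was 0.71 ± 0.08 (SE, 95% interval 0.53 to 0.89) at 1 uM and 0.70 ± 0.08 (0.52 to 0.89) at 10 uM, with adjusted p = 0.000216 and 0.000433 (limma). Against PDGF-AB it was 0.95 and 0.94. The doses differed by -0.00 with an interval of -0.19 to 0.18, and PDGF-AB differed from untreated by -0.24 ± 0.08 (adjusted p = 0.411). These 4 calls held in all 21 alternative settings.

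The 120 bases before the annotated start of Col11a1 are shown because it led the fibrillar genes and its 5′ flank was in the RefSeq table (GRCm38.p6, chr3:114030420-114030539, plus strand). Capitals mark a CCAAT box read on the other strand (ATTGG) and GC boxes (GGGCGG).
Col11a1: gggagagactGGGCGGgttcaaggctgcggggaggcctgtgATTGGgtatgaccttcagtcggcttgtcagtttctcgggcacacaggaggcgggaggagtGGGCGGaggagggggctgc

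Col1a1 (probe set 10380419) and Col1a2 encode the chains of type I collagen, the main fibril protein, of which the common helix holds more of the first than of the second. Col1a1 read 11.11, 10.99 and 11.15 untreated, 11.47, 11.13 and 11.22 with PDGF-AB, 11.64, 11.49 and 11.66 at 1 uM, and 11.58, 11.53 and 11.71 at 10 uM. The 6 AG1296 arrays were above all others, and the PDGF-AB and untreated arrays overlapped. The increase was 0.51 ± 0.10 at 1 uM (adjusted p = 0.0131) and 0.53 ± 0.10 at 10 uM (adjusted p = 0.0161). The 1 uM call ended without untreated replicate 2 or without AG1296 1 uM replicate 1 or 3 (adjusted p 0.0588 to 0.0684). The 10 uM call ended without untreated replicate 1 or 2 or AG1296 10 uM replicate 1 or 3 (0.0537 to 0.0856). Col1a2 was not called in any comparison: it read 11.08, 11.03 and 11.03 untreated, 11.39, 11.07 and 11.10 with PDGF-AB, 11.20, 11.12 and 11.15 at 1 uM and 11.24, 11.20 and 11.35 at 10 uM.

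Col3a1 (probe set 10346015), the single chain of the fibril collagen of compliant tissues, read 8.39, 8.46 and 8.35 untreated, 8.94, 8.71 and 8.63 with PDGF-AB, 8.79, 8.72 and 8.80 at 1 uM, and 8.99, 8.95 and 8.88 at 10 uM. All 9 treated arrays exceeded the 3 untreated ones, and the treated groups overlapped with PDGF-AB. The increase at 10 uM was 0.54 ± 0.09 (adjusted p = 0.00655). The increase at 1 uM was 0.37 ± 0.09 (adjusted p = 0.048), and PDGF-AB differed by 0.36 ± 0.09 (adjusted p = 0.191). The 1 uM call ended without any 1 of 10 arrays (all but PDGF-AB replicates 1 and 3), with adjusted p from 0.0576 to 0.164, and in 4 other settings (0.0568 to 0.0721).

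Type V collagen starts fibrils and limits their width. The genes of its α1 and α2 chains both had higher means than untreated at both AG1296 doses, and a difference between the chains was not tested. Col5a1 (probe set 10470462) read 7.03, 7.09 and 7.09 untreated, 7.23, 7.14 and 7.30 with PDGF-AB, 7.43, 7.27 and 7.44 at 1 uM, and 7.53, 7.53 and 7.59 at 10 uM, so that the 10 uM arrays were above all others. Col5a2 (probe set 10354309) read 8.50, 8.66 and 8.49 untreated, 8.56, 8.23 and 8.30 with PDGF-AB, 9.06, 9.06 and 8.87 at 1 uM, and 8.78, 8.85 and 8.90 at 10 uM. Its 6 AG1296 arrays were above the other 6, and the PDGF-AB and untreated arrays overlapped. Col5a1 rose by 0.48 ± 0.08 at 10 uM (adjusted p = 0.00677) and differed by 0.31 ± 0.08 at 1 uM (adjusted p = 0.065). Col5a2 rose by 0.45 ± 0.10 at 1 uM (adjusted p = 0.0306) and differed by 0.29 ± 0.10 at 10 uM (adjusted p = 0.25). Between doses, Col5a1 differed by 0.17 (95% interval -0.00 to 0.35) and Col5a2 by -0.15 (-0.38 to 0.07), neither of which was called. The Col5a2 call at 1 uM ended without untreated replicate 1 or 3 or AG1296 1 uM replicate 1 or 2 (adjusted p 0.117 to 0.129), or with only the 6 arrays compared in the fit (0.0525).

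The other 5 fibrillar genes (Col2a1, Col5a3, Col11a2, Col24a1, Col27a1) were not called in any comparison. Col2a1, the chain of cartilage fibrils, differed most of the 5, by 0.35 ± 0.09 between 10 uM and 1 uM (adjusted p = 0.196) and by 0.25 ± 0.09 between 10 uM and untreated (adjusted p = 0.271). Col11a2, which can share a helix with Col11a1, differed by 0.04 ± 0.11 at 10 uM and by -0.11 ± 0.11 at 1 uM. In the RefSeq table Col3a1 and Col5a2 are neighbouring protein-coding genes on chromosome 1. Against untreated, Col3a1 differed by 0.36 and Col5a2 by -0.19 with PDGF-AB, neither of which was called. In the same order the differences were 0.37 and 0.45 at 1 uM, and 0.54 and 0.29 at 10 uM.

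Among the FACIT genes, Col12a1 (probe set 10595211), a fibril-surface collagen found in tissues under tension, had the widest range over the groups of any collagen. It read 9.03, 9.14 and 9.08 untreated, 8.45, 8.48 and 8.81 with PDGF-AB, 9.94, 9.89 and 9.88 at 1 uM, and 9.53, 9.72 and 9.78 at 10 uM. The 4 groups did not overlap, from PDGF-AB as the lowest through untreated and 10 uM to 1 uM. The increase over untreated was 0.82 ± 0.11 (1.76-fold, adjusted p = 0.000488) at 1 uM and 0.59 ± 0.11 (1.51-fold, adjusted p = 0.00913) at 10 uM. Over PDGF-AB it was 1.32 ± 0.11 (2.50-fold, adjusted p = 3.30e-06) at 1 uM and 1.10 ± 0.11 (2.14-fold, adjusted p = 3.46e-05) at 10 uM. The doses differed by -0.23 (95% interval -0.46 to 0.00, adjusted p = 0.553).

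Col14a1 (probe set 10424140), another fibril-surface collagen, read 5.76, 5.68 and 5.72 untreated, 5.72, 5.88 and 5.90 with PDGF-AB, 6.54, 6.58 and 6.50 at 1 uM, and 6.31, 6.42 and 6.28 at 10 uM. The untreated and PDGF-AB arrays overlapped, the 10 uM arrays were above both and the 1 uM arrays above those. Against PDGF-AB the increase was 0.71 ± 0.08 at 1 uM (adjusted p = 0.000104) and 0.51 ± 0.08 at 10 uM (adjusted p = 0.0026). The doses differed by -0.20 (95% interval -0.38 to -0.02, adjusted p = 0.474). The 8 calls of Col12a1 and Col14a1 held in all 21 alternative settings. The other 7 FACIT genes (Col9a1, Col9a2, Col9a3, Col16a1, Col19a1, Col20a1, Col22a1) differed from untreated by -0.06 to 0.10 at 10 uM, and none was called in any comparison.

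Among the network genes, Col8a1 (probe set 10440091), a short-chain collagen of vessel walls and of the corneal endothelium, rose at both doses. It read 9.89, 9.89 and 9.83 untreated, 9.66, 9.67 and 9.81 with PDGF-AB, 10.36, 10.35 and 10.37 at 1 uM, and 10.19, 10.21 and 10.21 at 10 uM. The 4 groups did not overlap, in the same order as for Col12a1. The increase over untreated was 0.49 ± 0.08 at 1 uM (adjusted p = 0.00231) and 0.33 ± 0.08 at 10 uM (adjusted p = 0.0473), and over PDGF-AB it was 0.65 and 0.49. The call at 10 uM against untreated ended without any 1 of 10 arrays (all but PDGF-AB replicates 1 and 3), with adjusted p from 0.0586 to 0.178, and in 4 other settings: only the 6 arrays compared (0.124), the replicate number as a block (0.059), all probe sets tested (0.0631) and each array centred on its median (0.138). The other 3 calls held in all 21 settings. Col8a2 and Col10a1 were not called.

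The flank of Col8a1 is shown as that of a network gene with GC boxes (GRCm38.p6, chr16:57754738-57754857, minus strand). Capitals mark 3 GC boxes read on the other strand (CCGCCC), of which a pair lies side by side.
Col8a1: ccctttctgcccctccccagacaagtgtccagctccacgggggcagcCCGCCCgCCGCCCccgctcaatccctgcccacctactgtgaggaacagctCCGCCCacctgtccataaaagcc

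Col4a1 (probe set 10576973) and Col4a2 encode the chains of the most widespread type IV helix. Col4a1 read 7.80, 7.81 and 7.80 untreated, 8.03, 7.81 and 8.20 with PDGF-AB, 8.17, 8.20 and 8.22 at 1 uM, and 8.48, 8.37 and 8.46 at 10 uM. The 10 uM arrays were above all others, the 1 uM arrays above the untreated ones, and the PDGF-AB arrays spread from the untreated to the 1 uM level. Its increase at 10 uM (0.63 ± 0.10, adjusted p = 0.0033) held in all 21 settings. The increase at 1 uM (0.39 ± 0.10, adjusted p = 0.0424) ended without any 1 of the 9 untreated or AG1296 arrays (0.055 to 0.126) and in 3 other settings (0.0511 to 0.0574). Col4a2 read 7.22, 7.20 and 7.18 untreated, 7.25, 7.0 and 7.35 with PDGF-AB, 7.12, 7.23 and 7.18 at 1 uM, and 7.48, 7.47 and 7.68 at 10 uM. Its 10 uM arrays were above all others, but its difference from untreated, 0.35 ± 0.10, was not called (adjusted p = 0.124), and at 1 uM it differed by -0.02 ± 0.10.

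Both genes are known to share a promoter. In RefSeq the annotated transcripts start on opposite strands and overlap by 22 bases (GRCm38.p6, chr8:11312805-11312826). The differences from untreated were 0.21, 0.39 and 0.63 for Col4a1 and 0.00, -0.02 and 0.35 for Col4a2, in the order PDGF-AB, 1 uM and 10 uM.

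Col4a5 (probe set 10602105), a chain of the kidney, lung and eye basement membranes, read 6.66, 6.70 and 6.63 untreated, 6.54, 6.52 and 6.59 with PDGF-AB, 6.87, 6.91 and 6.73 at 1 uM, and 6.83, 6.88 and 6.98 at 10 uM. The PDGF-AB arrays were the lowest 3 and the AG1296 arrays the highest 6. The 10 uM arrays exceeded PDGF-AB by 0.35 ± 0.08 (adjusted p = 0.032). That call ended without any 1 of 7 arrays: PDGF-AB replicates 1, 2 and 3, AG1296 10 uM replicates 1, 2 and 3, and AG1296 1 uM replicate 1 (0.0516 to 0.121). It also ended with only the 6 arrays compared in the fit (0.13) and with each array centred on its median (0.0646). Its F test was not called (adjusted p = 0.0611). Col4a6, its neighbour on chromosome X, differed from PDGF-AB by 0.25 ± 0.09 at 10 uM (adjusted p = 0.198), and Col4a3 and Col4a4 differed from untreated by 0.11 and 0.07.

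Among the beaded-filament genes, Col6a1 (probe set 10370210), a chain of the type VI helix, read 7.68, 7.65 and 7.76 untreated, 7.85, 7.79 and 7.93 with PDGF-AB, 7.70, 7.49 and 7.61 at 1 uM, and 8.14, 8.13 and 8.05 at 10 uM. The 10 uM arrays were above all others, and the 1 uM arrays overlapped with the untreated ones. It was higher at 10 uM than at 1 uM by 0.50 ± 0.08 (1.42-fold, adjusted p = 0.0221), the only collagen called between the doses, where 0.376% of all genes were called. Against untreated it rose by 0.41 ± 0.08 at 10 uM (adjusted p = 0.023) and differed by -0.09 ± 0.08 at 1 uM (95% interval -0.28 to 0.09). The call between doses ended without any 1 of the 6 AG1296 arrays (0.0529 to 0.121) and with only the 6 arrays compared in the fit (0.114). The call against untreated ended without untreated replicate 1, 2 or 3 or AG1296 10 uM replicate 1 or 2 (0.0514 to 0.108) and with only the 6 arrays compared (0.0686).

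The flank of Col6a1 is shown because it holds the only TGANTCA motif, the letters that AP-1 factors bind, among the collagen flanks (GRCm38.p6, chr10:76726045-76726164, minus strand). Capitals mark it.
Col6a1: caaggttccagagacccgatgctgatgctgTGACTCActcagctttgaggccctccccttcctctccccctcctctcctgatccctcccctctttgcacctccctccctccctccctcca

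Col6a2 (probe set 10370180), the neighbour of Col6a1 on chromosome 10 and its partner in the helix, read 6.41, 6.64 and 6.11 untreated, 6.73, 6.53 and 6.73 with PDGF-AB, 6.76, 6.67 and 6.79 at 1 uM, and 7.0, 6.99 and 6.99 at 10 uM. The untreated arrays spread the most and the 10 uM arrays were above all others. It rose by 0.61 ± 0.12 at 10 uM (adjusted p = 0.0148) and differed by 0.35 ± 0.12 at 1 uM (adjusted p = 0.159). The call ended without untreated replicate 3, its lowest untreated array, or without AG1296 10 uM replicate 1 or 2 (0.0556 to 0.0586), and with only the 6 arrays compared (0.0776). Col6a3, the long chain of the same helix, was not called and had its highest mean with PDGF-AB, at 5.10 ± 0.10 beside 4.75 ± 0.16 untreated. Col6a4, Col6a5 and Col6a6 were not called in any comparison.

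Of the remaining classes, Col15a1, a multiplexin of basement membrane zones, differed most with PDGF-AB, at 4.62, 4.93 and 5.18 beside 4.54, 4.35 and 4.58 untreated. All 3 PDGF-AB arrays were above the untreated ones, and the difference of 0.42 ± 0.14 was not called (adjusted p = 0.373). The 4 transmembrane genes (Col13a1, Col17a1, Col23a1, Col25a1) differed from untreated by -0.02 to 0.10 at 10 uM. Col18a1, Col7a1, Col26a1 and Col28a1 were not called in any comparison.

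Set against PDGF-AB in place of untreated cells, AG1296 10 uM raised 8 collagens and lowered none, beside 3.42% of all genes called in either direction. These were Col5a1, Col5a2, Col11a1, Col12a1, Col14a1, Col4a1, Col4a5 and Col8a1. Without genes below the median of all values, this comparison called 1066 of 10296 genes. AG1296 1 uM raised 5 and lowered none (Col5a2, Col11a1, Col12a1, Col14a1, Col8a1), beside 5.21% called. With genes below the median of all values left out, that last comparison called 11 collagens, beside 1417 of 10296 genes. Of the 11 collagens 8 were higher and 3 lower (Col15a1, Col6a1 and Col6a3). With quantile normalization or an intensity trend 1 collagen was called lower, and with array weights or the replicate block 2 were. Neither comparison called Col1a1 or Col3a1, which differed from PDGF-AB by 0.33 ± 0.10 and 0.18 ± 0.09 at 10 uM. The 10 uM count fell to 4 (Col11a1, Col12a1, Col14a1, Col8a1) without PDGF-AB replicate 2 or AG1296 10 uM replicate 2 or 3, and to 5 without PDGF-AB replicate 3 or AG1296 10 uM replicate 1. The Col5a1 call (0.33 ± 0.08, adjusted p = 0.0479) ended without any 1 of 11 arrays (all but AG1296 1 uM replicate 2; 0.0627 to 0.157) and in 5 other settings (0.0529 to 0.171). The Col4a1 call (0.43 ± 0.10) ended without PDGF-AB replicate 1 or 2 or any AG1296 10 uM array (0.0502 to 0.0992), and the Col5a2 call without PDGF-AB replicate 2 or 3 or AG1296 10 uM replicate 2 or 3 (0.0644 to 0.0831). With only the 6 arrays compared in the fit, adjusted p was 0.137 for Col4a1 and 0.0748 for Col5a2.

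Chains that enter 1 helix were compared within each array, as the log2 value of one minus that of the other. Only the change of this difference between groups can be read, since its size also depends on the probes. Col11a2, Col8a2 and Col6a3 were dim, with untreated means of 5.24, 5.02 and 4.75 beside array medians of 4.02 to 4.13. Whether a change in their pairs mostly repeats that of the brighter chain was not tested. The 7 pairs were chosen after the values were seen, so their values are a description and were not tested.

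Col1a1 minus Col1a2 was 0.04 ± 0.08 untreated, 0.09 ± 0.03 with PDGF-AB, 0.44 ± 0.07 at 1 uM and 0.35 ± 0.02 at 10 uM (SD, n = 3). All 6 AG1296 arrays, at 0.33 or more, exceeded the other 6, at 0.13 or less. Col4a1 minus Col4a2 was 0.61 ± 0.02, 0.81 ± 0.03, 1.02 ± 0.04 and 0.89 ± 0.11 in the same order, with all 9 treated arrays above the untreated ones. Col11a1 minus Col11a2 was 1.39 ± 0.20, 1.16 ± 0.06, 2.20 ± 0.27 and 2.05 ± 0.19. Col8a1 minus Col8a2 was 4.85 ± 0.08, 4.75 ± 0.10, 5.37 ± 0.31 and 5.42 ± 0.14.

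Col5a1 minus Col5a2 was -1.48 ± 0.08 untreated, -1.14 ± 0.17 with PDGF-AB, -1.62 ± 0.18 at 1 uM and -1.29 ± 0.03 at 10 uM. It was highest with PDGF-AB and lowest at 1 uM. Col6a1 minus Col6a2 was 1.31 ± 0.32, 1.19 ± 0.07, 0.86 ± 0.06 and 1.11 ± 0.05, and its spread was widest in the untreated arrays; leaving out 1 array moved its shift at 1 uM from -0.45 to between -0.60 and -0.28. Col6a1 minus Col6a3 was 2.95 ± 0.10, 2.76 ± 0.12, 2.88 ± 0.18 and 3.15 ± 0.16. With 1 array left out in turn, the shift from untreated at 1 uM lay between 0.36 and 0.45 for Col1a1 minus Col1a2. It lay between 0.40 and 0.44 for Col4a1 minus Col4a2, and between 0.66 and 0.92 for Col11a1 minus Col11a2. At 10 uM it lay between 0.50 and 0.63 for Col8a1 minus Col8a2, and between 0.14 and 0.29 for Col6a1 minus Col6a3. With PDGF-AB it lay between 0.28 and 0.44 for Col5a1 minus Col5a2. Leaving out 1 of 3 arrays always moves a mean by less than the SD, so these ranges add no test.

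**Figure D3:**
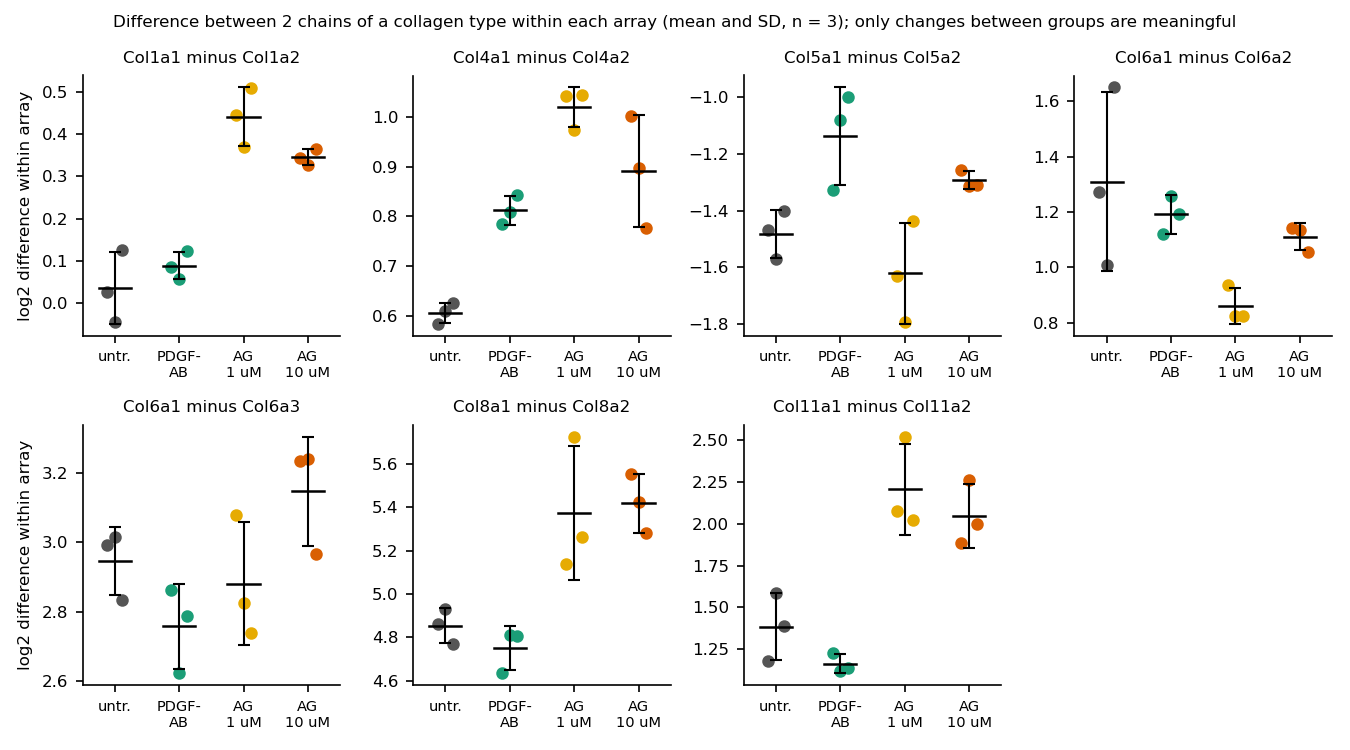
Difference between the log2 values of 2 chains of a collagen type within each array, with a panel per pair and the 4 groups along the horizontal axis. Points are arrays, bars the mean and SD of 3 arrays, and only changes between groups are meaningful. In the Col1a1 minus Col1a2 panel the 6 AG1296 arrays (0.33 and above) stand clear of the other 6 (0.13 and below).

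Flanks of 250 bases before the start were available for 35 of the 44 genes and for 8 of the 12 called ones (not Col1a1, Col5a2, Col12a1 and Col14a1). Counted on both strands, the GC box GGGCGG was in 57.9% of the 38 collagen flanks (some genes have several annotated starts) and in 32.7% of all 32851 flanks in the table. CCAAT was in 34.2% and 33.8%, TATAAA in 13.2% and 12.4%, and TGANTCA in 2.63% and 6.75%. The flanks in the table belong to 27025 genes, not only those measured, and their GC content was not compared with that of the collagen flanks. The GC box was in 66.7% of the 9 flanks of called genes and in 55.2% of the 29 flanks of the other collagens. None of the 4 motifs contains another, the shares are descriptions of the sequence, and no binding was measured.

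Of 34 genes that make and process collagen, 31 were measured. At 10 uM 4 rose and 1 fell (1.88% of all genes were called), at 1 uM 2 rose and 2 fell (3.20%), and with PDGF-AB none was called (limma, 0.331%). With PDGF-AB 7 of the 31 had an unadjusted p under 0.05, as did 8.55% of all genes. Compared with PDGF-AB, 5 were higher and 2 lower at 1 uM (5.21% of all genes were called). At 10 uM 4 were higher than with PDGF-AB and 1 lower (3.42%). Lox, the oxidase that starts crosslinking, read 11.19, 11.15 and 11.14 untreated, 10.67, 10.98 and 10.91 with PDGF-AB, 11.92, 11.96 and 11.88 at 1 uM, and 11.53, 11.63 and 11.64 at 10 uM. The 4 groups did not overlap, in the order of Col12a1 and Col8a1. Lox rose by 0.76 ± 0.09 at 1 uM (adjusted p = 0.00026) and by 0.44 ± 0.09 at 10 uM (adjusted p = 0.023; lost without any 1 of the 6 arrays compared, 0.0553 to 0.0955, and with each array centred on its median, 0.0642).

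Plod2, which hydroxylates lysines that form stable crosslinks, read 10.34, 10.32 and 10.14 untreated, 9.62, 10.13 and 9.93 with PDGF-AB, 10.99, 11.11 and 10.95 at 1 uM, and 10.82, 10.91 and 10.79 at 10 uM. All 6 AG1296 arrays were above the others. It rose by 0.75 ± 0.12 at 1 uM (adjusted p = 0.0023) and 0.57 ± 0.12 at 10 uM (adjusted p = 0.0226; lost without any 1 of the 6 arrays compared, 0.0529 to 0.114, and with each array centred on its median, 0.0519). P4ha1, a subunit of prolyl 4-hydroxylase, and Serpinh1, the collagen chaperone HSP47, were not called against untreated and were higher than with PDGF-AB at both doses. For P4ha1 these differences were 0.48 ± 0.08 at 1 uM and 0.38 ± 0.08 at 10 uM, and the latter was lost without AG1296 10 uM replicate 2 or 3 (0.051 to 0.0581) and with only the 6 arrays compared (0.0997). For Serpinh1 they were 0.42 ± 0.08 and 0.43 ± 0.08, and with only the 6 arrays compared neither was called (0.0526 and 0.0697).

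Tll1, a relative of the protease that trims procollagen ends, went the other way. It read 8.63, 8.53 and 8.45 untreated, 8.20, 8.26 and 8.25 with PDGF-AB, 7.14, 6.94 and 6.88 at 1 uM, and 7.53, 7.55 and 7.63 at 10 uM, and the 4 groups did not overlap. It fell by 1.55 ± 0.09 at 1 uM (adjusted p = 5.55e-07) and by 0.96 ± 0.09 at 10 uM (adjusted p = 6.46e-05). Fkbp14, a prolyl isomerase, also fell at 1 uM, by 0.36 ± 0.08, but its F test was not called (adjusted p = 0.0689). At 10 uM Colgalt1, which adds galactose to hydroxylysine, rose by 0.41 ± 0.07 (adjusted p = 0.00977; 0.0578 with only the 6 arrays compared) and the oxidase Loxl1 by 0.37 ± 0.08 (adjusted p = 0.0428; lost without any 1 of 10 arrays, all but PDGF-AB replicates 1 and 3, 0.0585 to 0.179). The Loxl1 call was also lost with the replicate number as a block (0.0572) and in 3 other settings (0.0605 to 0.107). Loxl4 was lower at 1 uM than with PDGF-AB by 0.46 ± 0.10 (adjusted p = 0.0142); this was lost without PDGF-AB replicate 1 or AG1296 1 uM replicate 2 (0.0573 and 0.0704) and with only the 6 arrays compared (0.0622), and with the mean of its probe sets the difference was -0.20 (adjusted p = 0.351).

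Of 10 collagen receptors, 9 were measured. At 1 uM 3 rose and none fell (3.20% of all genes were called), at 10 uM 1 rose and none fell (1.88%), and with PDGF-AB none was called (limma, 0.331%). With PDGF-AB 1 of the 9 had an unadjusted p under 0.05, as did 8.55% of all genes. Compared with PDGF-AB, 4 receptors were higher and 1 lower at 1 uM (5.21% of all genes were called). At 10 uM 2 were higher than with PDGF-AB and none lower (3.42%). Mrc2, an endocytic receptor that takes up collagen fragments, read 7.89, 8.02 and 7.91 untreated, 8.24, 8.24 and 8.32 with PDGF-AB, 8.54, 8.44 and 8.46 at 1 uM, and 8.37, 8.51 and 8.51 at 10 uM. All 9 treated arrays exceeded the untreated ones, and it rose by 0.54 ± 0.08 at 1 uM (adjusted p = 0.00175) and 0.52 ± 0.08 at 10 uM (adjusted p = 0.00399). At 1 uM the integrin subunits Itga11 and Itga1 rose by 1.06 ± 0.19 (adjusted p = 0.00529) and 0.68 ± 0.15 (adjusted p = 0.0269). The Itga1 call ended without any 1 of the 6 arrays compared (0.058 to 0.107).

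**Figure D4:**
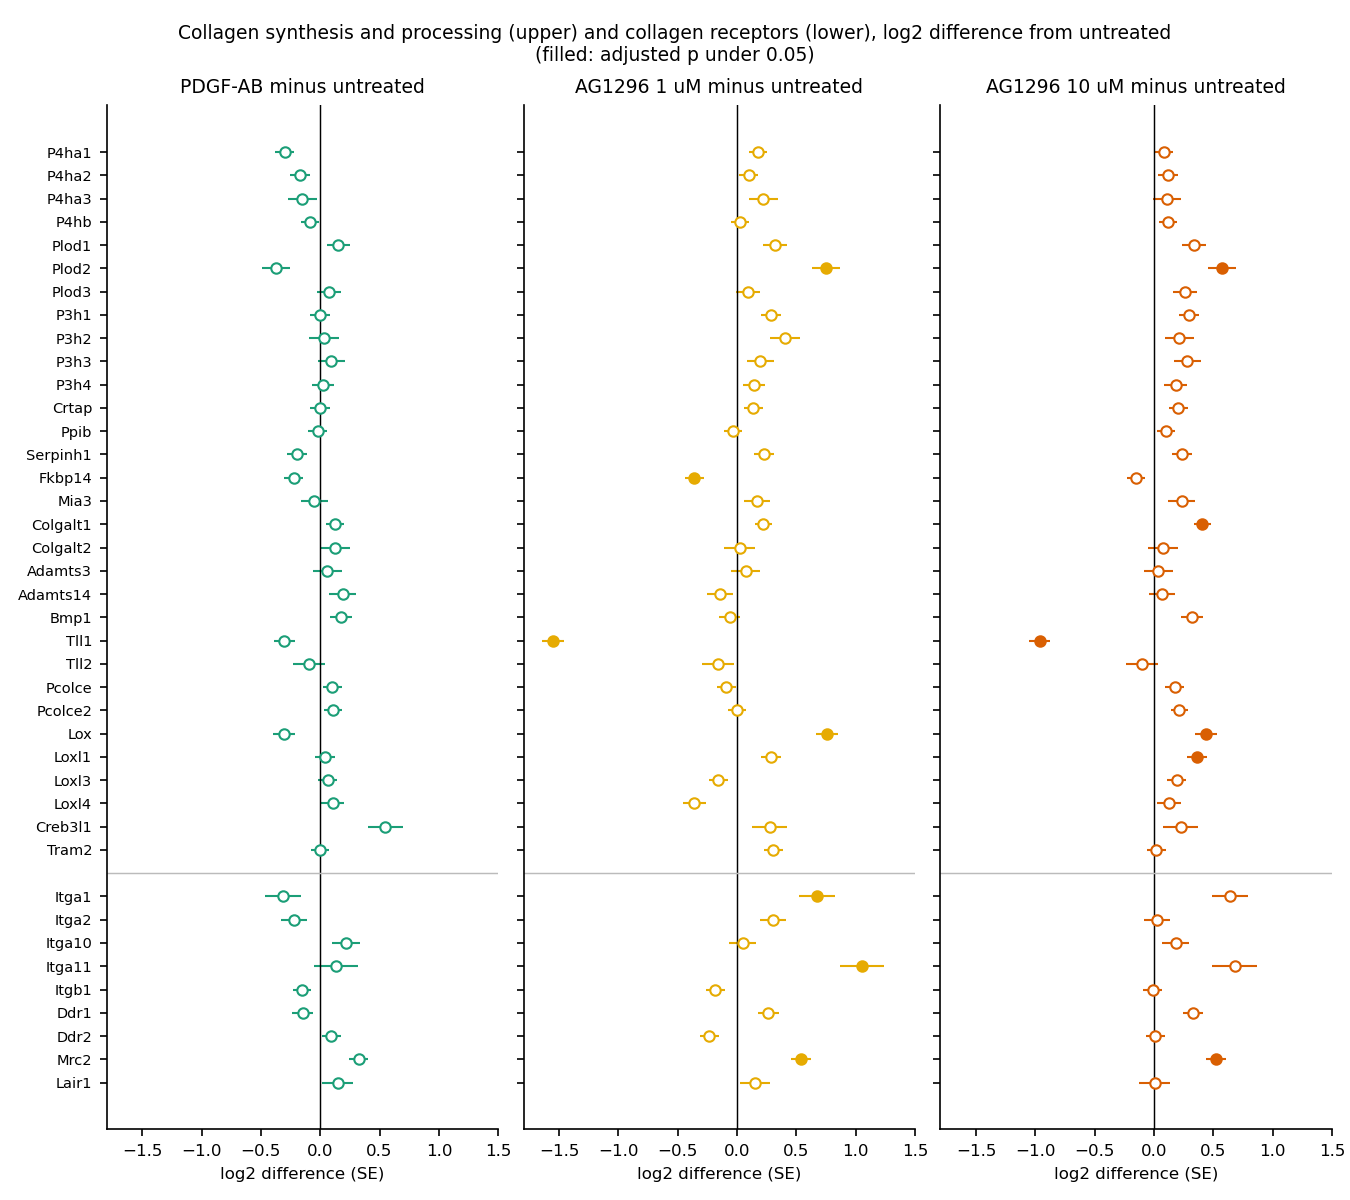
Log2 difference from untreated, with SE, for 31 genes of collagen synthesis and processing (above the line) and 9 collagen receptors (below it), with 1 panel per treatment. Filled points have an adjusted p under 0.05. Tll1 lies farthest to the left at both AG1296 doses, at -1.55 and -0.96, and no point is filled with PDGF-AB.

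Markers of cell identity moved in the same arrays, and their part in the collagen differences was not tested. Among 10 fibroblast markers, Pdgfra fell at both doses, by 0.91 ± 0.09 at 1 uM and 0.40 ± 0.09 at 10 uM (the latter lost without any 1 of 10 arrays, all but PDGF-AB replicates 1 and 3, 0.0509 to 0.152, with the replicate number as a block, 0.0515, and in 3 other settings, 0.0504 to 0.0776). Dcn rose at both, and Lum and Dpt rose at 1 uM. The summed level of the list ranged, in log2, from 13.59 to 13.66 untreated, 13.56 to 13.65 with PDGF-AB, 13.57 to 13.59 at 1 uM and 13.57 to 13.59 at 10 uM. The sums of this and the later lists add unlogged values, so they mostly follow the brightest members and not the list as a whole. Here the brightest was Vim, with a mean of 12.85 untreated and 12.79 at 1 uM. Of 6 mesothelial markers, Upk1b and Lrrn4 fell at both doses, Krt19 fell and Upk3b rose at 1 uM. At 1 uM the Krt19 call ended without untreated replicate 1 or 2 or AG1296 1 uM replicate 2 or 3 (0.0631 to 0.0692), and that of Lrrn4 without untreated replicate 3 or AG1296 1 uM replicate 2 (0.0539 and 0.0572). The mesothelial sum was 8.24 to 8.30 untreated, 7.97 to 8.21 with PDGF-AB, 7.92 to 7.95 at 1 uM and 7.77 to 7.87 at 10 uM.

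Of 8 chondrocyte markers, Sox9, a regulator of the cartilage collagen genes Col2a1 and Col11a2, was the only one called, at 0.53 ± 0.08 (1 uM) and 0.76 ± 0.08 (10 uM) above untreated. Of the list 5 were below the array median on all 12 arrays, as were 8012 of all 19938 genes. The sum of the list was 7.78 to 7.84 untreated, 7.84 to 7.90 with PDGF-AB, 8.15 to 8.24 at 1 uM and 8.32 to 8.45 at 10 uM. Sox9 was by far its brightest member, with means of 7.24, 7.35, 7.77 and 8.00 in the same order. Of 8 pericyte and smooth muscle markers, Mcam fell at both doses and Myh11 rose at 10 uM (lost without any 1 of 9 arrays, all but untreated replicate 2, PDGF-AB replicate 1 and AG1296 10 uM replicate 3, 0.0547 to 0.187, and in 4 other settings, 0.0616 to 0.155). The sum of this list was 8.09 to 8.17 untreated, 8.05 to 8.20 with PDGF-AB, 7.44 to 7.52 at 1 uM and 7.95 to 8.01 at 10 uM. Mcam was its brightest member, with a mean of 7.36 untreated and 5.94 at 1 uM, while 4 of the 8 markers had a higher mean at 1 uM than untreated. Of 8 endothelial markers Tek rose at 1 uM, while Pecam1 stayed between 2.87 and 3.32 on all 12 arrays. The endothelial sum was 6.26 to 6.43 untreated, 6.28 to 6.52 with PDGF-AB, 6.42 to 6.51 at 1 uM and 6.29 to 6.42 at 10 uM. Against untreated no cardiomyocyte, leukocyte or Schwann cell marker was called (limma). Against PDGF-AB, AG1296 also raised collagens, and other markers were called. At 1 uM 7 of 10 fibroblast (3 higher) and 4 of 6 mesothelial markers (1 higher) were called, beside 5.21% of all genes. So were 3 of 8 pericyte and smooth muscle markers, all lower. At 10 uM these lists had 3 (1 higher), 3 (1 higher) and 1 (higher) called, beside 3.42%. Of the marker calls against PDGF-AB, 22 were followed in the alternative settings, and 10 of them were lost in at least 1. The leukocyte marker Lyz2 was higher than with PDGF-AB by 0.79 ± 0.19 at 1 uM (adjusted p = 0.0239) and by 1.02 ± 0.19 at 10 uM (0.00634). The cardiomyocyte marker Tnnt2 was lower by 0.38 ± 0.09 (0.0258) and 0.46 ± 0.09 (0.0099). The Lyz2 call at 1 uM ended without PDGF-AB replicate 1 or 3 or AG1296 1 uM replicate 2 (0.0695 to 0.117). The Tnnt2 call at 1 uM ended without PDGF-AB replicate 1 or 3 or AG1296 1 uM replicate 2 or 3 (0.0675 to 0.108), and that at 10 uM without AG1296 10 uM replicate 1 (0.0609). With only the 6 arrays compared neither Tnnt2 difference was called (0.0868 and 0.0538), and with each array centred on its median that at 1 uM was not (0.0682).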

How the data were processed

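RNA of cultured, sorted cardiac fibroblasts was hybridised to 12 Affymetrix WT arrays of 1 colour, 3 per group. The authors deposited log2 expression, 1 value per probe set and array; RMA and limma are named, without versions, in the submitters' processing notes. The table does not name its log base, which their range shows; they were used as deposited. Of 28853 probe sets, 21789 had 1 gene symbol, and the brightest per gene gave 19938 genes. No filter on dim genes was applied, so all 44 collagens were tested.

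All 12 arrays entered 1 fit of group means in limma 3.58.1 (R 4.3.3) with empirical Bayes moderation (8 residual and 5.35 prior degrees of freedom). There were 6 two-sided comparisons and an F test, with Benjamini-Hochberg adjustment over all genes within each, and a call is an adjusted p under 0.05. Precision is limited by having 3 arrays per group. The fit was tested on simulated data.

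The members, the lists and the tests were chosen with earlier results of these data known. Every collagen could be named. Each called one is given on every array, the others by class with the chain partners of called genes; up to 8 called genes of synthesis and processing and up to 3 receptors with the smallest F p were added, with Pdgfra and Pecam1. Fkbp14 and single markers were named after their values were seen. Group replicate numbers were not used as a block. The RefSeq tables gave names, neighbours and flanks.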

Additional observations from a re-analysis of the deposited data

Results flagged for a closer look

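Among the collagens, the other lists and the markers, 7 genes differed between the 2 AG1296 doses: Col6a1, Tll1 and 5 cell type markers. Col6a1 was higher at 10 uM than at 1 uM by 0.50 ± 0.08 on the log2 scale (limma, adjusted p = 0.0221): from untreated it differed by -0.09 at 1 uM and by 0.41 at 10 uM. Col6a2, which is next to it in the genome, differed between the doses by 0.25 ± 0.12 (adjusted p = 0.547). Tll1 was higher at 10 uM than at 1 uM by 0.59 ± 0.09 (adjusted p = 0.0138), having fallen further at the lower dose. The Tll1 call between doses was lost without AG1296 1 uM replicate 2 or 3 or AG1296 10 uM replicate 1 or 3 (adjusted p 0.0558 to 0.0828) and with only the 6 arrays compared (0.0938). Of the fibroblast markers, Pdgfra was higher at 10 uM than at 1 uM by 0.51 ± 0.09 (adjusted p = 0.0282), while Lum (-1.96 ± 0.13, adjusted p = 1.22e-05), Dcn (-0.96 ± 0.10, adjusted p = 0.000998) and Dpt (-0.85 ± 0.13, adjusted p = 0.0162) were lower. Mcam, a pericyte and smooth muscle marker, was higher at 10 uM by 0.83 ± 0.09 (adjusted p = 0.0011). Leaving out any 1 of the 6 AG1296 arrays ended the Pdgfra call (0.0884 to 0.134), as did fitting those 6 alone (0.0921) or centring each array on its median (0.0621). The Dpt call between doses ended on leaving out replicate 1 or 2 of AG1296 1 uM or replicate 1 or 3 of 10 uM (0.0828 to 0.0882) and with only the 6 arrays compared (0.0683). The Lum, Dcn and Mcam calls between doses held in all 21 alternatives.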

How the results depend on the processing

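Each comparison was refitted under 21 alternatives, or 20 for the F test: 9 other settings and leaving out each of the 12 arrays. No collagen call reversed. Of the 32 collagen calls, 19 held in every alternative and 13 were lost in at least 1, all 13 of them on leaving out some array. With genes below the median of all values left out (10296 genes, 36 collagens), 11 collagens were called between AG1296 1 uM and PDGF-AB in place of 5 (8 higher, 3 lower), and 1 between PDGF-AB and untreated in place of 0 (Col12a1, lower). With an intensity trend and robust moderation these counts were 8 and 2 (Col12a1 lower, Col3a1 higher), and 2 were called between the doses in place of 1 (Col4a2 with Col6a1). Array weights gave 9 between AG1296 1 uM and PDGF-AB. With only the 6 arrays compared in the fit, 4 in place of 8 were called between AG1296 10 uM and PDGF-AB and 0 between the doses. On leaving out 1 array the counts were 9 to 11 in the F test, 6 to 10 at 10 uM against untreated (6 without AG1296 10 uM replicate 1), 4 to 8 at 1 uM against untreated, 0 to 1 with PDGF-AB, 0 to 1 between the doses, and 4 to 8 at 10 uM and 5 to 7 at 1 uM against PDGF-AB. Centring each array on its median moved the share of higher calls among all genes called between the doses from 52.0% to 40.4%, and among those called between AG1296 10 uM and untreated it was 64.3% and 56.0%.

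The replicate numbers recur in each group. Deviations from the group mean correlated at a median r of 0.110 between arrays of the same number and -0.034 between arrays of different numbers. All 6 pairs of replicates 2 lay at 0.15 to 0.30, 3 of the 6 pairs of replicates 3 were above 0.1 and 0 of the 6 pairs of replicates 1 were; 8 of the 12 arrays correlated best with their own number, a hint from the data and not the design. As 9 of the 18 pairs were not above 0.1, the numbers were not taken as pairs. With the replicate number as a block, 9 in place of 10 collagens were called at 10 uM against untreated, Col8a1 being lost (adjusted p = 0.059), and among the other genes named the calls of Loxl1 (0.0572) and Pdgfra (0.0515) in that comparison were lost. The block gave 7 in place of 5 (2 of them lower) at 1 uM against PDGF-AB, and 8 at 1 uM against untreated. The cause of these differences was not tested. The 3 arrays per group and signal near background limit what can be seen of the 8 collagens that were not above the array median on every array.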
